A study of Mus musculus with 2 samples.

Results

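The miRNAs described here are mmu-miR-320-3p, mmu-miR-484, both arms of miR-877 (mmu-miR-877-5p and mmu-miR-877-3p) and both arms of miR-702 (mmu-miR-702-5p and mmu-miR-702-3p). They were chosen by name because each is known to be made without the nuclear enzyme Drosha. All 6 had a row among the 1214 miRNA entries of a table of 1374 small RNA entries. They were measured in exosomes, small vesicles that cells release into the medium. The vesicles came from C57BL/6 mesenchymal stem cells (MSCs) and from the control NIH3T3, an immortalised fibroblast line of NIH Swiss origin. Both cell types had grown for 72 hours in αMEM with 5% fetal bovine serum, and the question posed was which miRNAs are enriched in MSC exosomes. Each group held 1 library, so no difference below has a replicate check, no test was made and every interval covers counting error only. The way a miRNA was made cannot be read from its count, so the data do not check the label "Drosha-independent".

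Most miRNAs begin as a hairpin in a long transcript. Drosha and its partner Dgcr8 cut the hairpin out, and Dicer then removes the loop to leave the 5p and 3p arms. The hairpins of miR-320 and miR-484 skip the first cut, because transcription itself starts at the hairpin's 5′ end, which therefore carries a cap like that of an mRNA. Mirtrons such as miR-877 and miR-702 skip it in another way: they lie in short introns, and the splicing machinery makes the cuts that Drosha would make. In mouse, miR-320 is known to repress the small heat shock protein Hsp20 in the heart, and miR-484 to repress the mitochondrial fission protein Fis1.

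Of the 6 members, 5 were matched by name to a mature RefSeq sequence in GRCm38.p6, the assembly called mm10 in the submitters' processing notes. They are shown 5′ to 3′ because the mirtron arms carry the marks of intron ends. Capitals mark the seed, bases 2 to 8, which governs target pairing. The last line is miR-3102-5p, shown because it has the same seed as miR-702-5p.
miR-484: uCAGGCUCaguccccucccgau
miR-877-5p: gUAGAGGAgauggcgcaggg
miR-877-3p: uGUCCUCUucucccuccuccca
miR-702-5p: gUGAGUGGggugguuggcaug
miR-702-3p: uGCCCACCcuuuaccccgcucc
miR-3102-5p: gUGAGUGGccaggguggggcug
The 5 members have 5 different seeds. Only the miR-702-5p seed occurred in another of the 1052 miRNA entries with a matched sequence, namely in miR-3102-5p, which had 11 MSC and 7 NIH3T3 counts.

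By position the members fall into capped hairpins near promoters and hairpins inside introns. In mm10, miR-320-3p lies at chr14:70443557-70443578 on the plus strand, and its hairpin begins 63 bases upstream of a start of Polr3d, an RNA polymerase III subunit gene on the opposite strand. miR-484 lies at chr16:14159630-14159651 on the plus strand. Its hairpin is within the span of Marf1, on the opposite strand, 359 bases upstream of a Marf1 transcript start, and its 3′ part overlaps an untranslated exon of another Marf1 transcript. Neither hairpin matched an intron on its own strand.

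The miR-877 hairpin fills an intron from end to end. It is 85 bases long and coincides with the intron between exons 12 and 13 of Abcf1, the gene of a ribosome-associated ATP-binding protein, on the minus strand. miR-877-5p (chr17:35960795-35960814) starts at the first base of that intron, and miR-877-3p (chr17:35960731-35960752) stops 1 base before its last. The hairpin follows, with both arms in capitals.
Mir877, chr17:35960730-35960814, minus strand: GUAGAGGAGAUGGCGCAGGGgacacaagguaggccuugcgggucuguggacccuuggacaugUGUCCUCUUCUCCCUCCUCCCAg

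For miR-702 the arms, but not the annotated hairpin, match the intron. miR-702-5p (chr5:136991442-136991462) begins at the first base of the 102-base intron between exons 13 and 14 of Plod3, a collagen-modifying lysyl hydroxylase, on the plus strand. miR-702-3p (chr5:136991520-136991541) stops 2 bases before the intron's end. The annotated hairpin of 109 bases starts 9 bases earlier, in exon 13, as the lower-case bases at its left end show.
Mir702, chr5:136991433-136991541, plus strand: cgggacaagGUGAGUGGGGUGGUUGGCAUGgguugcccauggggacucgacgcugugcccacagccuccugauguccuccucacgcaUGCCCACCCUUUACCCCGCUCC

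**Figure D1:**
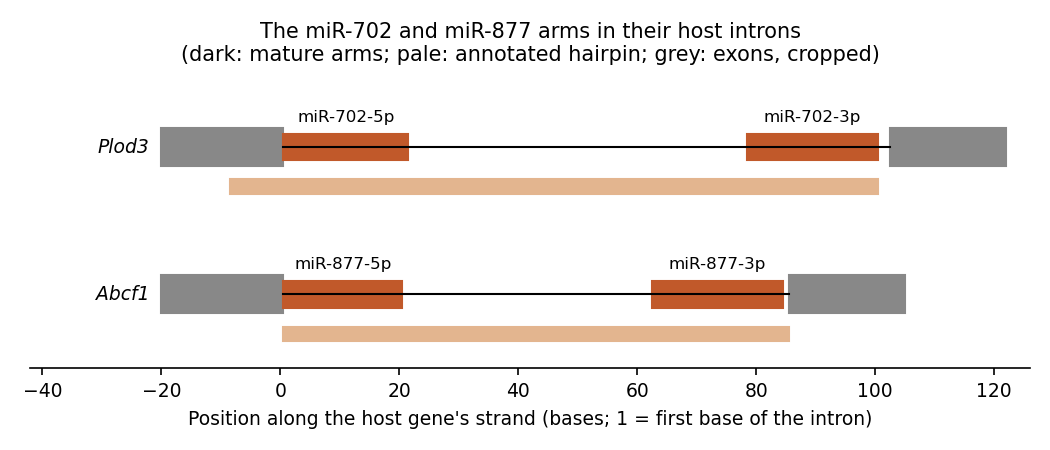
The miR-702 and miR-877 arms drawn in the introns of Plod3 and Abcf1, with distance in bases from the first base of each intron. Both 5p arms begin at base 1, and the 3p arms stop 2 bases (miR-702-3p) and 1 base (miR-877-3p) before the end of introns of 102 and 85 bases.

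The arms differ in composition according to the end of the intron they come from. Both 5p arms start with GU, the letters with which nearly all introns begin, and are poor in pyrimidines (C and U), which make up 20% of miR-877-5p and 33.3% of miR-702-5p. The 3p arms hold the pyrimidine-rich stretch that precedes the end of an intron, with 90.9% in miR-877-3p and 81.8% in miR-702-3p, against a median of 50.0% over the 1052 matched entries. miR-484, at 68.2%, lay between them. Stretches of 18 bases of miR-877-3p were also found in annotated transcripts of 3 other genes (6820408C15Rik, Adck1 and Ppfibp1), whereas the other 4 sequences matched transcripts of no gene but their own. Because the mirtron arms are also intron sequence, mature arms and other fragments of these introns cannot be told apart in the counts.

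In level, miR-320-3p stood far above the other members in both libraries. Its raw count was 2662 for MSC and 1266 for NIH3T3 exosomes. Scaled to 1000000 miRNA counts (CPM), this was 2589 (95% exact Poisson interval 2492 to 2689) and 2937 (2778 to 3104). Among the 1214 miRNA entries it ranked 58 in MSC and 44 in NIH3T3 exosomes, so it was well represented in both.

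miR-484 came next, at a small fraction of that level. Its counts were 129 (MSC) and 66 (NIH3T3), or 125 CPM (105 to 149) and 153 CPM (118 to 195), with intervals that overlap. Within each library miR-320-3p had about the same multiple of the miR-484 count, 20.6 times in MSC and 19.2 times in NIH3T3 exosomes. The log2 of that ratio differed between the libraries by 0.11, with a 95% exact conditional interval of -0.36 to 0.56, and this difference does not depend on how the libraries are scaled.

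The arms of miR-877 were at about the level of miR-484 in NIH3T3 exosomes and below it in MSC exosomes. For miR-877-5p the counts were 79 for MSC and 66 for NIH3T3, which is 76.8 CPM (60.8 to 95.8) and 153 CPM (118 to 195). For miR-877-3p the counts were 56 and 63, at 54.5 CPM (41.1 to 70.7) and 146 CPM (112 to 187). For both arms the NIH3T3 level was the higher, and the intervals did not overlap.

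The arms of miR-702 were higher in the MSC library and rested on few counts in the other. miR-702-3p was counted 41 times (MSC) and 7 times (NIH3T3), or 39.9 CPM (28.6 to 54.1) and 16.2 CPM (6.53 to 33.5), with intervals that overlap. miR-702-5p had 48 and 2 counts, or 46.7 CPM (34.4 to 61.9) and 4.64 CPM (0.562 to 16.8), and these intervals did not overlap. In MSC exosomes the order of the levels was thus miR-320-3p, miR-484, miR-877-5p, miR-877-3p, miR-702-5p and miR-702-3p. Only the step from miR-320-3p to miR-484 and that from miR-484 to miR-877-5p exceeded the counting intervals of neighbours. In NIH3T3 exosomes miR-484 and miR-877-5p had equal counts and miR-877-3p lay just below. There the step from miR-320-3p to miR-484 and that from miR-877-3p to miR-702-3p exceeded the intervals.

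**Figure D2:**
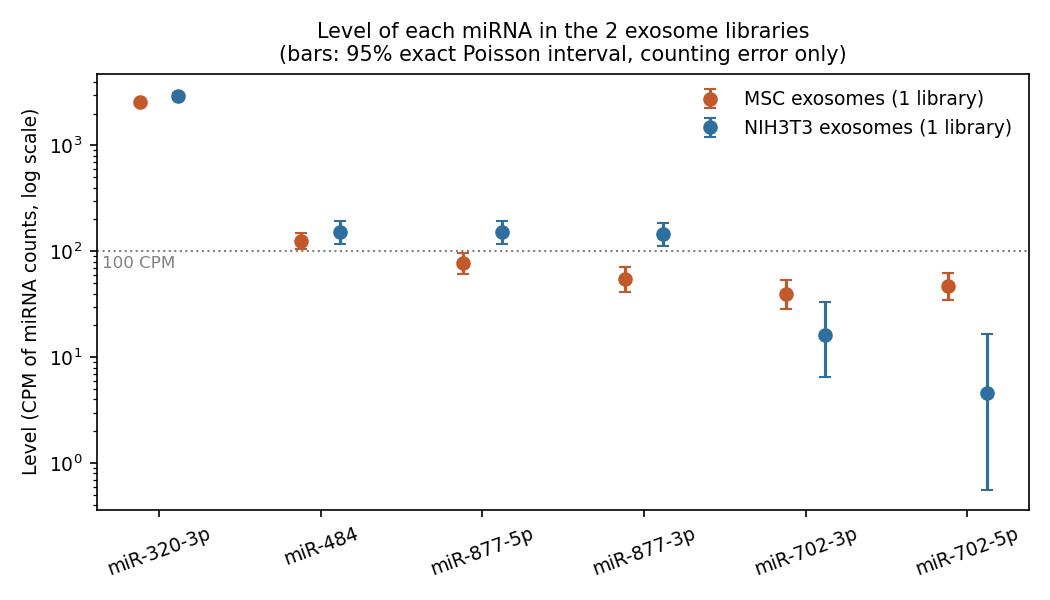
Level of each member in CPM of miRNA counts (log scale) in the MSC and the NIH3T3 library, with 95% exact Poisson intervals and a dotted line at 100 CPM. miR-320-3p sits at 2589 and 2937 CPM, the miR-877 arms are higher in NIH3T3 exosomes, and the miR-702 arms are higher in MSC exosomes.

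Between the libraries the point estimates of the capped miRNAs differed by less than 2-fold, while the pair of mirtrons went opposite ways. The log2 ratio of MSC over NIH3T3 exosomes was taken on the authors' deposited scale with an added constant worth 1 CPM, and calls of higher or lower needed a 2-fold difference. It was -0.42 for miR-320-3p (95% exact conditional interval -0.51 to -0.32) and -0.52 for miR-484 (-0.96 to -0.07), both within the bounds. By the miRNA total the interval of miR-484 included 0 (-0.73 to 0.16). Centred on the median ratio of miRNAs at 100 CPM or more, miR-484 was at -0.79, with an interval that reached past 2-fold (-1.24 to -0.35). miR-877-5p was 2.33-fold lower in MSC exosomes (-1.22, -1.72 to -0.74), though scaled by the miRNA total its log2 ratio of -0.99 fell within the bounds. miR-877-3p was 3.12-fold lower (-1.64, -2.21 to -1.12). Its interval lay wholly beyond 2-fold on the deposited scale but not by the miRNA total (-1.41, -1.97 to -0.88).

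miR-702-3p was 2.03-fold higher in MSC exosomes (1.02), but its interval of -0.11 to 2.46 on the deposited scale included no difference. By the miRNA total miR-702-3p was at 1.25, with an interval of 0.13 to 2.70. It fell within the bounds when centred on the median ratio (0.74), when the 10 leading miRNAs of either library were left out of the scaling (0.86) and with an added constant of 5 CPM (0.88). miR-702-5p was 7.29-fold higher (2.87), with a wide interval of 1.16 to 6.18, since it had 2 counts in the NIH3T3 library. With an added constant of 5 CPM the difference was 4.78-fold (2.26), and the interval began inside 2-fold when centred (0.89). Both miR-702 arms lay below 100 CPM in each library. Every entry has 10 or more counts in at least 1 library, and the miR-702 arms reach this through MSC exosomes alone. Their presence in the table therefore favours calling them higher in MSC exosomes. Both miR-877 arms reached 100 CPM through their NIH3T3 level alone, so that a floor set there favours calling them lower in MSC exosomes.

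Of the 4 members at 100 CPM or more in at least 1 library, 2 were lower, 0 were higher and 2 were within 2-fold. Of all 318 miRNAs at that floor, 34.0% were higher in MSC exosomes and 26.1% lower. Without a CPM floor 2 of the 6 members were higher, 2 lower and 2 within, beside 23.8% higher and 25.5% lower of all 1214 entries. The 2 higher members were the miR-702 arms, so this count is not independent of how entries came to be in the table. The median log2 ratio of the 6 was -0.47 and that of all entries -0.04. With 4 or 6 entries such shares are too coarse to set the members apart from other miRNAs.

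**Figure D3:**
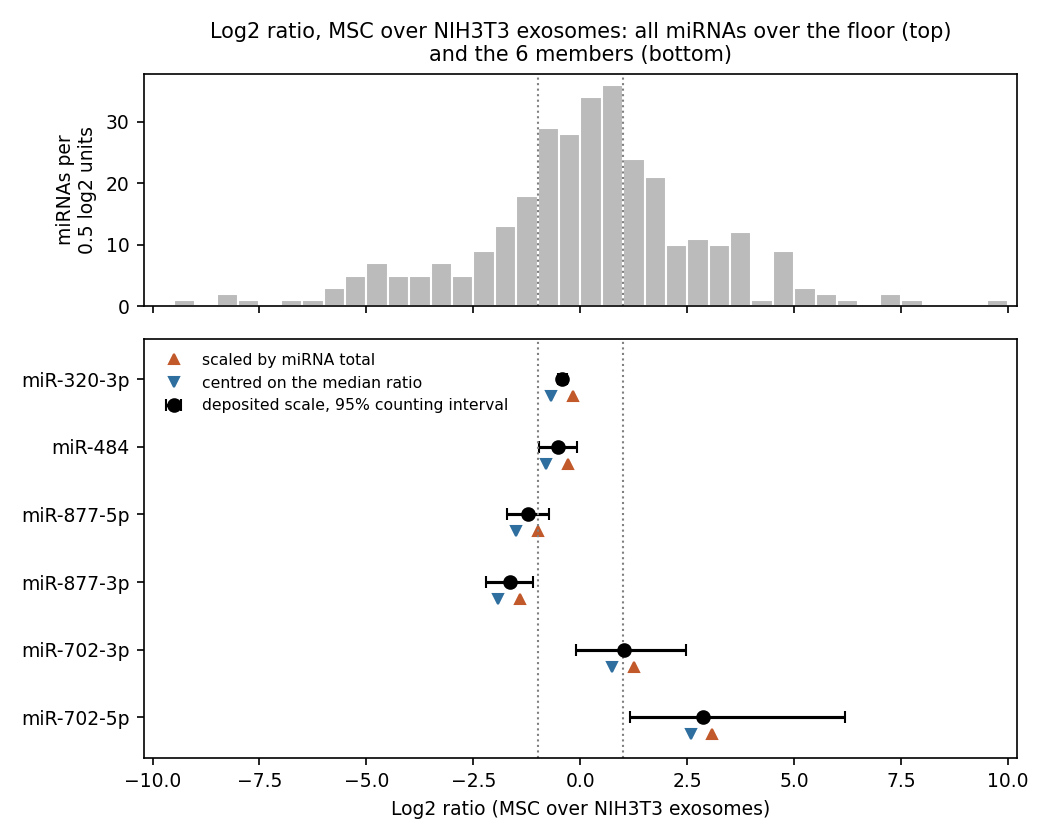
Log2 ratio of MSC over NIH3T3 exosomes as a histogram of the 318 miRNAs over the floor (top) and for each member with its 95% counting interval (bottom), with dotted lines at 2-fold. Triangles give the same ratio scaled by the miRNA total or centred on the median. In each of the 3 versions the miR-877 arms lie below 0 and the miR-702 arms above it.

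Ratios between members of the same library do not depend on scaling, and 9 pairs were compared in this way, counting miR-320-3p with miR-484 above and the arm pairs of 4 hairpins. The ratio of miR-702-3p to miR-877-5p was 0.519 in MSC and 0.106 in NIH3T3 exosomes, a log2 difference of 2.29 (0.99 to 3.78). Against miR-877-5p, miR-320-3p was 33.7 times as high in MSC and 19.2 times in NIH3T3 exosomes (0.81, 0.31 to 1.31), and miR-484 was 1.63 times and 1 time as high (0.71, 0.04 to 1.38). Against miR-702-3p the difference for miR-320-3p had the other sign, with 64.9 and 181 times (-1.48, -2.88 to -0.30). For these 4 pairs, and for the arms of miR-1224 given next, the counting interval of the difference lay on 1 side of 0. The 9 intervals were not adjusted for their number. miR-702-3p has its row through its MSC count alone and miR-1224-3p through its NIH3T3 count alone. This favours the differences seen in the pairs that hold them.

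The hairpins also differed in how counts fell on their arms. miR-320 counts lay almost wholly on the 3p arm, which made up 99.3% of the counts of both arms in MSC exosomes (2662 of 2682, 95% Wilson interval 98.9 to 99.5) and 98.8% in NIH3T3 exosomes (1266 of 1281, 98.1 to 99.3). For miR-320, the cap at the hairpin's 5′ end is known to keep the 5p arm out of Argonaute, the protein that carries the mature miRNA. Whether the cap set these shares was not tested. The annotated miR-484 hairpin (chr16:14159626-14159692) holds mature miR-484 on its 5′ side, so this account was not applied to miR-484. No arm dominated in miR-877, where the 5p arm had 58.5% of 135 counts in MSC (50.1 to 66.5) and 51.2% of 129 in NIH3T3 exosomes (42.6 to 59.6).

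In miR-702 the 5p arm had 53.9% of 89 counts in the MSC library (43.6 to 63.9) and 22.2% of 9 in the NIH3T3 library (6.32 to 54.7). The mirtron miR-1224 had 81.1% of 37 counts on the 5p arm in MSC (65.8 to 90.5) and 48.0% of 25 in NIH3T3 exosomes (30.0 to 66.5). Between the libraries, the log2 ratio of the arms differed by 0.66 for miR-320 (3p over 5p, -0.42 to 1.70), 0.43 for miR-877 (5p over 3p, -0.31 to 1.17) and 2.03 for miR-702 (5p over 3p, -0.48 to 5.39). Each of these 3 intervals included 0, so no shift between the arms of miR-320, miR-877 or miR-702 was detectable at this depth. For miR-1224 the difference was 2.22 (5p over 3p, 0.38 to 4.09), towards the 5p arm in MSC exosomes. This interval excluded 0 but rests on 37 and 25 counts, and the intervals of the miR-1224 shares overlap. The 3p arm of miR-1224 has its row through its NIH3T3 count alone, which favours such a difference.

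**Figure D4:**
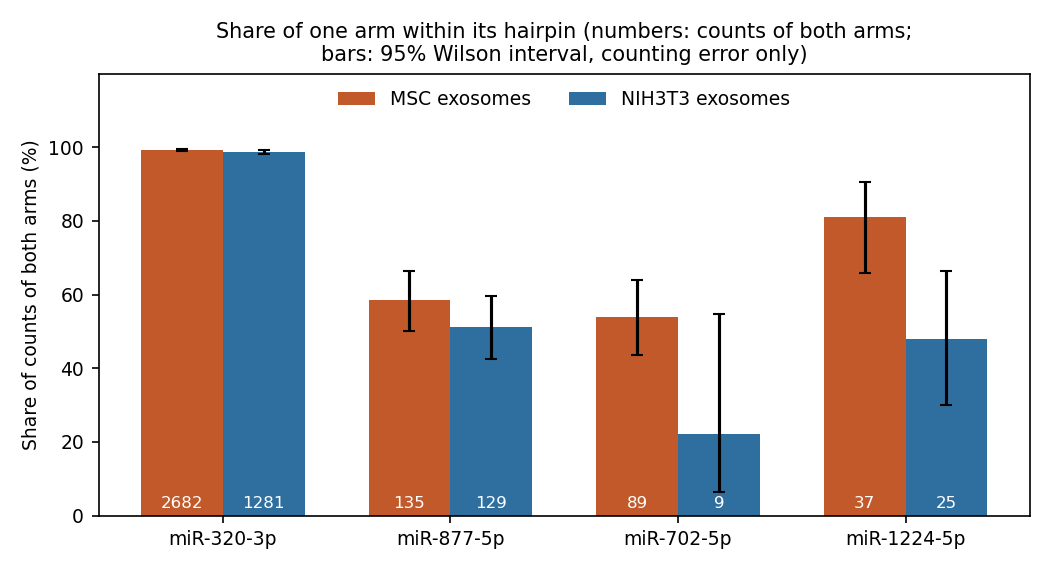
Share of the named arm in the counts of both arms of its hairpin, in percent, with 95% Wilson intervals and the number of counts at the foot of each bar. miR-320-3p holds 99.3% and 98.8%, whereas the miR-877 and miR-702 arms are more evenly used and the miR-702 share in NIH3T3 exosomes rests on 9 counts.

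Other hairpins that fill an intron were sought in the GENCODE annotation of the same assembly, as those with both ends within 5 bases of the ends of 1 intron on their strand. This gave 30 miRNA entries, the 2 miR-877 arms among them. Some hairpins gave more than 1 entry (Mir3102 gave 4), so these are not 30 separate loci. miR-702 was not among them, because its annotated hairpin reaches into the exon. All 30 were exact matches at both ends. Of their 5p arms with a matched sequence, 13 of 16 began with GU, against 29 of 466 for all 5p arms (6.22%). This follows from the choice by intron ends, since nearly all introns begin with GU.

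These entries were about as rare as miRNA entries in general, with a median of 26 counts in the MSC and 12.5 in the NIH3T3 library, beside 22.5 and 11 for all miRNA entries. At 10 CPM or more in at least 1 library, 4 of 29 were higher in MSC exosomes, 11 lower and 14 neither, with a median log2 ratio of -0.78. Of the 29, 2 passed through the MSC and 3 through the NIH3T3 level alone. Of all 1181 miRNAs at that floor, 23.9% were higher and 26.2% lower, with a median of -0.07. The lower count was 7 (24.1%) when scaled by the miRNA total and 15 (51.7%) when centred on the median, so it moved with the scaling. The lower share of all miRNAs moved as well. At 100 CPM it was 26.1% of 318 on the deposited scale, 23.9% by the miRNA total and 31.1% centred. That floor differs from the 10 CPM used for the 29 arms, so the rescaled shares are not directly comparable. Without the members and the related list below, 4 of 24 arms at 10 CPM were higher (16.7%) and 8 lower (33.3%) on the deposited scale.

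By summed level, the leading arms of this kind were miR-1981-5p, miR-6970-5p, both miR-877 arms, miR-6923-3p and miR-6981-5p. miR-1981-5p, in an intron of Marc2, had counts of 277 (MSC) and 72 (NIH3T3) and was within 2-fold (0.45, 0.08 to 0.85). miR-6970-5p, in Skiv2l, an RNA helicase gene, had 54 and 80 counts (-2.03, -2.58 to -1.54). miR-6923-3p, in the embryonic myosin gene Myh3, had 30 and 56 counts (-2.35, -3.08 to -1.73), and miR-6981-5p, in Arap3, had 34 and 40 (-1.69, -2.43 to -1.03). Of these 6 arms, 5 were lower in MSC exosomes, though by the miRNA total miR-877-5p was not, beside 26.2% of all 1181 miRNAs. Of the 5 arms at 100 CPM or more, 4 reached it through their NIH3T3 level alone. Of all 318 miRNAs at that floor, 55 passed through NIH3T3 alone and 90 through MSC alone. An arm that passes through NIH3T3 alone is more readily called lower in MSC exosomes, so such calls are not independent of a choice by level.

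**Figure D5:**
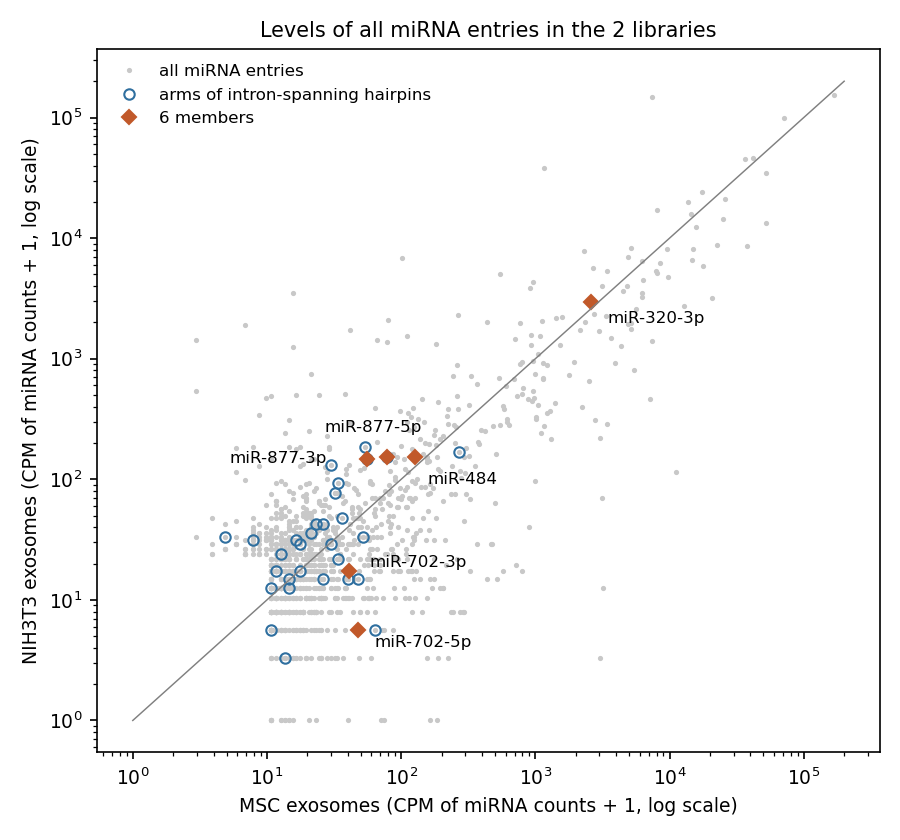
Level of every miRNA entry in MSC exosomes (horizontal axis) and NIH3T3 exosomes (vertical axis), as CPM of miRNA counts plus 1 on log axes, with the line of equal levels. miR-320-3p and miR-484 lie near the line, the miR-877 arms above it and the miR-702 arms below it, and the 30 arms of intron-filling hairpins are found on both sides.

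A list of other miRNAs known to bypass a step of the usual pathway had 9 entries in the table, and miR-1981-3p had no row. Of the 9, 1 was higher in MSC exosomes, 3 lower and 5 neither, with a median log2 ratio of -0.38, beside the shares of all 1214 entries given above. The arm opposite miR-320-3p, miR-320-5p, had counts of 20 (MSC) and 15 (NIH3T3) (-1.03, -2.11 to -0.00). The mirtron miR-1224, in Vwa5b2, had 30 and 12 counts for the 5p arm (-0.16, -1.18 to 0.93) and 7 and 13 for the 3p arm (-2.21, -3.95 to -0.95).

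The hairpins of miR-664 and miR-1839 overlap an annotated small nucleolar RNA (Snora36b) and a small Cajal body RNA, and their arms went no single way. miR-1839-5p had 255 and 120 counts (-0.40, -0.72 to -0.08), and miR-1839-3p, with 70 and 9, was the 1 higher entry (1.43, 0.46 to 2.66). The miR-1839-3p entry, too, reached 10 counts through MSC exosomes alone. miR-664-5p had 130 and 30 counts (0.62, 0.04 to 1.25) and miR-664-3p 17 and 8 (-0.38, -1.69 to 1.02). miR-451a, a red blood cell miRNA that Drosha does cut but whose hairpin is then matured by Ago2 in place of Dicer, had 27 and 26 counts (-1.40, -2.27 to -0.60).

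The entries nearest to the members in level over both libraries, by distance on the log2 (CPM + 1) scale, came from unrelated hairpins. For miR-320-3p these were miR-185-5p (2800 and 1018 counts, distance 0.32) and miR-2137 (3249 and 1724, 0.53), and for miR-484 they were miR-365-2-5p (123 and 76, 0.21) and miR-425-3p (149 and 69, 0.22). miR-877-5p was nearest to miR-29a-5p (88 and 70, 0.18) and miR-30e-3p (91 and 59, 0.26), and miR-877-3p to miR-8109 (53 and 53, 0.26) and miR-494-3p (50 and 51, 0.34). Likeness over 2 libraries is a description of their counts only.

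The libraries held 2500459 counts (MSC) and 1037147 (NIH3T3), of which 1028186 and 431007 were on miRNAs. Of the 5 stromal markers miR-143-3p and miR-145a-5p were higher in MSC exosomes and miR-199a-3p, miR-214-3p and miR-21a-5p were within 2-fold, so both libraries carried stromal miRNAs. In a list of serum-borne miRNAs, miR-423-5p had a log2 ratio of -2.01 and was lower, whereas miR-122-5p (-0.00), miR-16-5p (0.06) and miR-486a-5p (-0.46) stayed within 2-fold. In MSC and NIH3T3 exosomes miR-122-5p had 9759 and 3486 counts, and miR-16-5p had 26461 and 9060. For miR-423-5p the counts were 2347 and 3368, and for miR-486a-5p 61 and 30. Counts of blood cell markers ran from 21 to 121 (MSC) and from 6 to 142 (NIH3T3), with miR-142a-3p (-1.71) and miR-451a lower and the other 3 within 2-fold. The endothelial miR-126a-3p was lower (-1.36), and the epithelial miR-205-5p had 28 and 13 counts, while miR-200c-3p had no row. The part of serum or of other cells in the members' levels was not tested.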

How the data were processed

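Small RNA of exosomes was sequenced from 1 library per group, built with the QIAseq miRNA kit per the labels' protocols, which also mention a microarray. The deposited table gives whole-number raw counts and normalized values on a log2 scale, per the file headers. Each deposited log2 value equals the log2 of the raw count times 0.655 (MSC) or 1.84 (NIH3T3). How the authors chose these factors, the aligner, the counter and any use of molecular identifiers are not given in the sources used here. If counts are reads, PCR copies make the intervals too narrow. Every entry has 10 or more counts in at least 1 library. The build is mm10, per the submitters' processing notes.

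Ratios used the deposited factors plus a constant of 0.734, worth 1 CPM averaged over the libraries. Intervals are 95% exact conditional (ratios, without the constant), exact Poisson (levels) or Wilson (shares), from scipy 1.17.1 in Python 3.11.15. Only the intervals of ratios between the libraries were tried on simulated data. Those counts were drawn with Poisson error alone, so the trial says nothing about PCR copies. Hairpins and introns came from GENCODE M21. Of 1206 miRNA entries with a position, all 1206 lay in a GENCODE hairpin. Of 1011 entries with 1 position and a RefSeq sequence, 1007 had the same position there. Named were the members, the related list, seed sharers, the 2 entries nearest each member over 100 CPM and the 6 leading intron-filling arms. Members and lists were chosen with earlier results of these data known.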

Additional observations from a re-analysis of the deposited data

How the results depend on the processing

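Scaling moved miR-320-3p beyond its narrow counting interval without leaving the 2-fold bounds, to -0.18 by the miRNA total, -0.20 by the total of all entries, -0.59 with the 10 leading miRNAs of either library left out and -0.69 centred on the median. The median log2 ratio of all 318 miRNAs, 0.28 on the deposited scale, became 0.51, 0.50, 0.11 and 0.00 in turn. The other members stayed inside their intervals and kept their direction under these scalings and added constants of 0.1 and 5 CPM. A floor of 10 CPM gave 282 higher and 309 lower miRNAs, 1000 CPM 34 and 25, and no CPM floor 289 and 309, in place of 108 and 83. The share called higher fell from 34.0% of 318 to 23.9% of 1181 at 10 CPM, while the share called lower was 26.1% and 26.2%, and the cause was not tested. Among the arms of intron-filling hairpins, ends within 10 bases gave 7 higher (18.4%) and 12 lower (31.6%) of 38. A floor of 100 CPM gave 0 higher and 4 lower of 5 arms, of which 4 passed through NIH3T3 alone. The miRNA total gave 7 lower of 29 (24.1%). A rule on arm ends, added after seeing the data so that miR-702 entered, gave 12 higher and 23 lower of 70 at 10 CPM. These were 17.1% and 32.9%, beside 23.9% and 26.2% of all 1181 miRNAs. Of the 70, 10 passed through MSC and 6 through NIH3T3 alone. Arm shares and ratios within a library stayed inside their intervals. Counts under about 10 limit what can be said of miR-702 in NIH3T3 exosomes. No paired analysis was possible because each group had 1 library.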
